A study of Chlorocebus sabaeus with 45 samples.

Results

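Genes that act in the last steps of red cell maturation were followed in the blood of vervet monkeys (Chlorocebus sabaeus) through relocation and quarantine. They are BNIP3L, TRIM58, TRIM10, UBE2O, UBE2H, FBXO7, MKRN1, XPO7 and RNF10, chosen by gene symbol, and they make up 9 of the 33994 genes in each library. Whole-blood RNA came from 15 wild-born juvenile males from St. Kitts, each from a different troop, and every animal was sampled at 3 time points, which gave 45 libraries. On day 0 the animals were bled in the field, sedated with ketamine and xylazine. On day 3 and day 14 they were housed singly in quarantine and sedated with dexmedetomidine and midazolam. Place, housing and sedation therefore changed together between day 0 and the later days, and their effects cannot be told apart. Each later sample also followed earlier blood draws from the same animal, whose effect cannot be told apart from that of the time point. The RNA integrity of the samples also increased on average from day 0 to day 3 and to day 14. Globin and ribosomal RNA had been removed from the libraries.

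A reticulocyte is a young red cell that has lost its nucleus and still holds RNA, ribosomes and mitochondria, which it clears before it becomes a mature erythrocyte. Mitochondria are removed by mitophagy, in which a receptor on the outer mitochondrial membrane recruits the autophagy machinery. Many other proteins are marked with ubiquitin by a chain of E1, E2 and E3 enzymes and degraded by the proteasome, and several of these enzymes are made at high levels late in erythroid development. In whole blood, more reticulocytes and more of a transcript per reticulocyte cannot be told apart.

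All 9 genes were up-regulated on day 14 vs. day 0, by 2.63-fold for UBE2H to 7.22-fold for TRIM58. By day 3, TRIM58, TRIM10, UBE2O, XPO7 and RNF10 were already up-regulated vs. day 0, while BNIP3L, UBE2H, FBXO7 and MKRN1 did not pass the test. FBXO7 and MKRN1 passed it when the animal was fitted as a block. Together the 9 genes took 0.883% ± 0.602 (SD, n = 15) of a day 0 library, 1.37% ± 0.713 of a day 3 library and 2.52% ± 0.944 of a day 14 library. Changes are log2 fold changes of FPKM (fragments per length of gene and per library total) after TMM scaling (trimmed mean of M values) and addition of 0.1, compared with limma over the 18753 genes tested, and a gene was called at a Benjamini-Hochberg adjusted p under 0.05. Values in FPKM are as deposited.

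**Figure D1:**
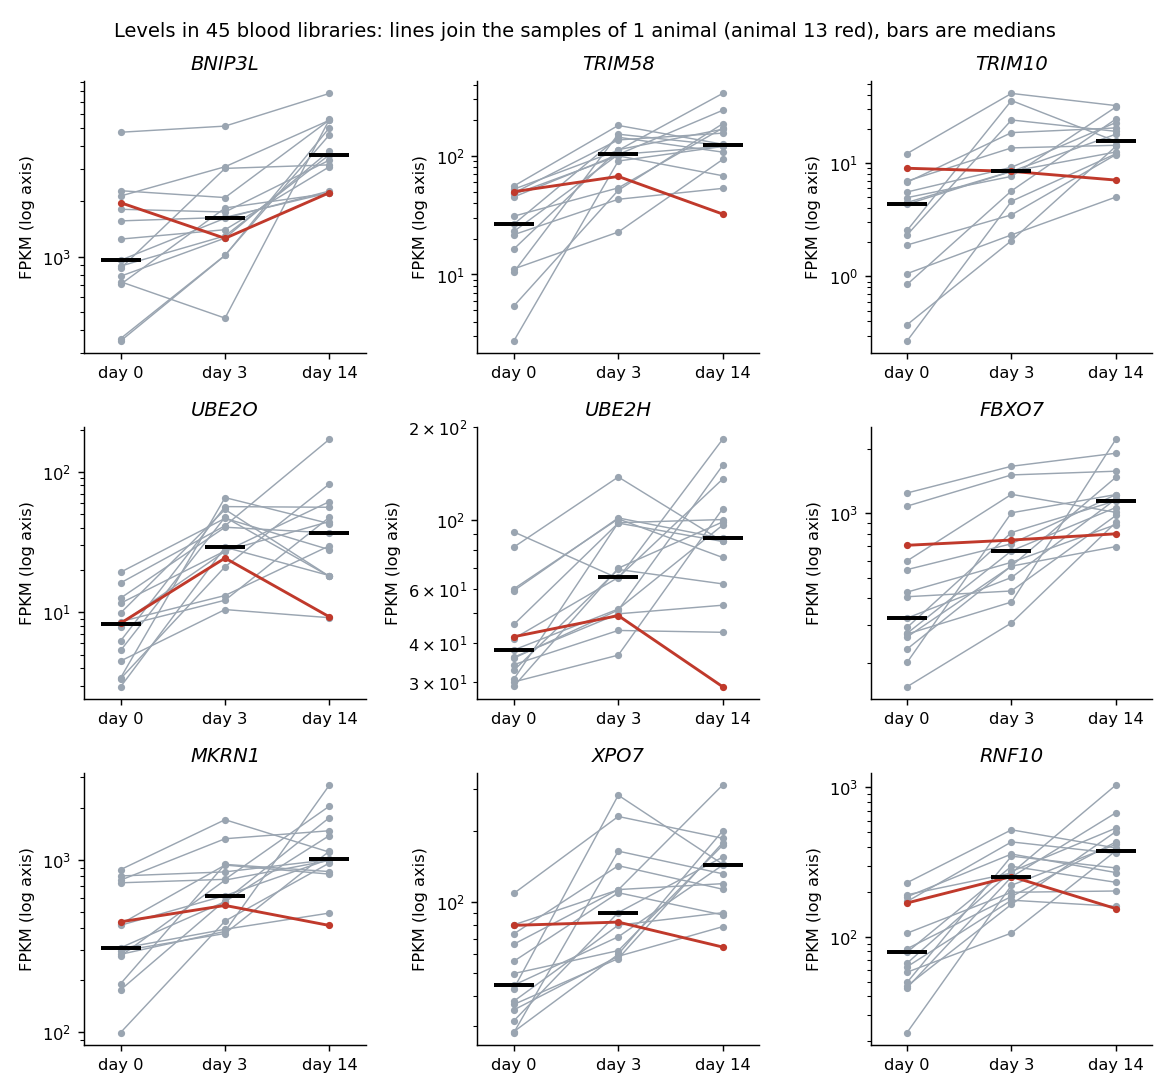
FPKM of the 9 genes on a log axis on days 0, 3 and 14. Points are single libraries, grey lines join the 3 samples of an animal, the red line is animal 13 and black bars are medians of 15 animals. The median of every gene was higher on day 3 than on day 0 and highest on day 14, and the ranges of the time points overlapped for each gene.

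BNIP3L (also NIX), the mitophagy receptor that reticulocytes need to remove their mitochondria, was the most abundant of the 9. On day 0 it ranged from 347.8 to 4768 FPKM with a median of 957.7, on day 3 from 463.0 to 5150 with a median of 1621, and on day 14 from 2217 to 7761 with a median of 3596. Animal 7 was highest at every time point, and only 5 of the 15 day 14 values lay above its day 0 value. The log2 fold change on day 14 vs. day 0 was 2.15 (standard error 0.39, adjusted p = 4.01e-05), and BNIP3L was higher in 15 of 15 animals. On day 3 vs. day 0 it was 0.55 with a 95% interval of −0.23 to 1.34 (adjusted p = 0.395), and 11 of 15 animals were higher. From day 3 to day 14 BNIP3L was up-regulated by 1.59 (standard error 0.39, adjusted p = 0.00839), more than any other of the 9, and higher in 14 animals.

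TRIM58 is an E3 ligase of late erythroblasts that targets the dynein motor and takes part in enucleation. It ranged from 2.75 to 55.7 FPKM on day 0 with a median of 26.6, from 22.8 to 180.9 on day 3 with a median of 102.9, and from 32.3 to 337.0 on day 14 with a median of 122.7. Of the day 3 values, 11 lay above the highest day 0 value, and 13 of the day 14 values did. TRIM58 was up-regulated by 1.99 on day 3 vs. day 0 (standard error 0.44, adjusted p = 0.00289, higher in 15 of 15 animals). On day 14 vs. day 0 the log2 fold change was 2.85 (adjusted p = 5.05e-06), with animal 13 alone lower. Between day 3 and day 14 it was 0.87, with an interval of −0.02 to 1.75 (adjusted p = 0.173).

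TRIM10, a second TRIM family protein known from erythroid differentiation, was the least abundant of the 9. Its median was 4.34 FPKM on day 0 (range 0.269 to 12.2), 8.47 on day 3 (2.07 to 41.4) and 15.6 on day 14 (5.02 to 32.3). The lowest library, that of animal 9 on day 0, held 18 fragments of TRIM10, and no other of the 9 genes fell below 178 in any library. TRIM10 was up-regulated by 1.67 on day 3 (standard error 0.51, adjusted p = 0.0257) and by 2.85 on day 14 (standard error 0.51, adjusted p = 3.14e-05), both vs. day 0, in 14 of 15 animals. The day 3 call was lost without animal 6, without animal 11 or with RNA integrity as a covariate, with adjusted p of at most 0.0622. On day 14 vs. day 3 the log2 fold change was 1.18 (adjusted p = 0.107, and 0.0234 with the animal as a block).

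UBE2O combines E2 and E3 activity and removes ribosomal and other unassembled proteins from reticulocytes. It ranged from 2.95 to 19.3 FPKM on day 0 with a median of 8.3, from 10.5 to 65.6 on day 3 with a median of 29.1, and from 9.15 to 170.7 on day 14 with a median of 36.7. Day 3 held 12 values above the whole day 0 range, and the 170.7 FPKM of animal 15 on day 14 was followed by 82.1 in animal 8. Up-regulation on day 3 vs. day 0 was 2.04 (standard error 0.41, adjusted p = 0.00143), the highest of the 9, and every animal was higher. UBE2O was up-regulated by 2.57 on day 14 vs. day 0 (adjusted p = 7.72e-06), in 14 animals. From day 3 to day 14 the log2 fold change was 0.53, with an interval of −0.29 to 1.36 (adjusted p = 0.39). In 9 animals UBE2O was higher on day 14 than on day 3 after scaling, and in 6 in the deposited FPKM.

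UBE2H is an E2 enzyme of erythroid cells that works with the CTLH ligase, a large ring-shaped E3 complex. Its median was 38.1 FPKM on day 0 (range 29.0 to 91.5), 65.3 on day 3 (36.6 to 137.8) and 87.2 on day 14 (28.9 to 182.5). The 28.9 FPKM of animal 13 on day 14 was just below the lowest deposited value of day 0. After scaling, its log2 value of 4.667 lay above the lowest of day 0, the 4.285 of animal 9. UBE2H had the smallest rise on day 14 vs. day 0, 1.4 (standard error 0.31, adjusted p = 0.000517), in 14 of 15 animals. The change on day 3 was 0.70 (adjusted p = 0.142, and 0.0407 without TMM), also in 14 animals, and that from day 3 to day 14 was again 0.70 (adjusted p = 0.121, and 0.0493 with the animal as a block), with 8 animals higher and 7 lower.

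FBXO7, the F-box subunit that selects substrates for an SCF-type ubiquitin ligase and also binds a proteasome regulator, and MKRN1, a RING E3 ligase with zinc fingers that bind RNA, were close in level. FBXO7 had a median of 323.5 FPKM on day 0 (range 154.4 to 1244), 667.5 on day 3 (307.0 to 1659) and 1144 on day 14 (698.5 to 2220). For MKRN1 the median was 308.7 FPKM on day 0 (range 99.5 to 875.7), 618.8 on day 3 (373.2 to 1704) and 1006 on day 14 (415.4 to 2708). Animal 7 was highest for both on days 0 and 3, and animal 8 on day 14.

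FBXO7 was up-regulated by 2.0 on day 14 vs. day 0 (standard error 0.34, adjusted p = 1.53e-05), with animal 13 close to no change at −0.001. MKRN1 was up-regulated by 2.02 (standard error 0.37, adjusted p = 3.84e-05), in 14 animals. Neither passed the test on day 3 vs. day 0, where FBXO7 changed by 0.88 (adjusted p = 0.0787, and 0.0127 with the animal as a block) and MKRN1 by 0.95 (adjusted p = 0.0814, and 0.0278 with the block). From day 3 to day 14 FBXO7 was up-regulated by 1.12 (adjusted p = 0.0255) and MKRN1 by 1.07 (adjusted p = 0.0449). The FBXO7 call on day 14 vs. day 3 was lost without animal 3, 8, 12 or 14 (log2 fold change down to 0.93, adjusted p up to 0.0941). The MKRN1 call was lost when animal 1, 2, 3, 8, 9, 10, 12, 14 or 15 was left out, with RNA integrity as a covariate, without a filter on low values and with voom on the fragments (log2 fold change at least 0.85, adjusted p up to 0.153).

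XPO7, a nuclear exportin known for its part in the emptying of the erythroid nucleus before enucleation, had a median of 44.5 FPKM on day 0 (range 28.0 to 108.8), 90.3 on day 3 (57.7 to 283.2) and 143.3 on day 14 (64.5 to 312.8). Of the day 14 values, 11 lay above the highest day 0 value. XPO7 was up-regulated by 1.08 on day 3 (standard error 0.32, adjusted p = 0.0217, in 14 animals), a call lost without animal 6 or without animal 11 (adjusted p up to 0.0611), and by 1.88 on day 14 (standard error 0.32, adjusted p = 1.86e-05, in 14 animals). The step from day 3 to day 14 was 0.80 (adjusted p = 0.0864, and 0.0342 with the animal as a block).

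RNF10, a RING E3 ligase that acts on ribosomal proteins of the small subunit, had a median of 78.9 FPKM on day 0 (range 22.9 to 230.3), 253.3 on day 3 (106.0 to 519.9) and 376.1 on day 14 (154.4 to 1037). Day 14 held 12 values above the day 0 range and day 3 held 9. It was up-regulated by 1.59 on day 3 (standard error 0.37, adjusted p = 0.00483, higher in 15 of 15 animals, though by 0.01 in the least changed) and by 2.47 on day 14 (standard error 0.37, adjusted p = 4.27e-06, in 14 animals). The log2 fold change between these days was 0.88 (adjusted p = 0.103, and 0.0495 with the block), with 8 animals higher and 7 lower.

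**Figure D2:**
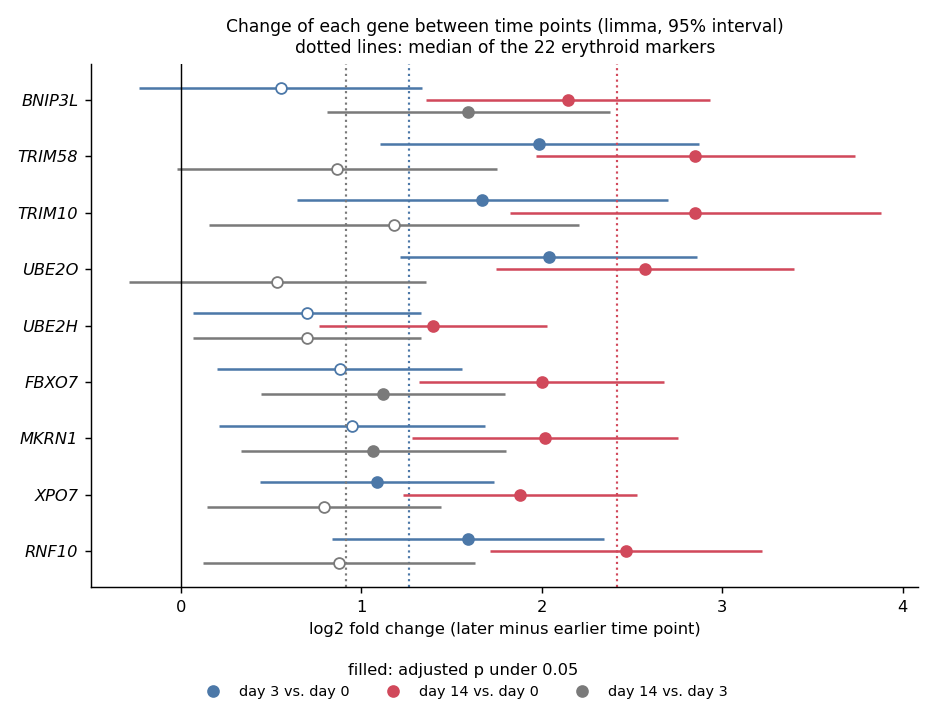
Log2 fold change of each gene in the 3 comparisons, with its 95% interval from limma. Filled points passed an adjusted p under 0.05, and dotted lines give the median of the 22 erythroid markers in the same comparison. All points lie to the right of 0, and the 9 day 14 vs. day 0 points (red) are all filled.

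Across the 9 genes, 5 were called up between days 0 and 3, all 9 between days 0 and 14 and 3 between days 3 and 14, and none was called down. Of all genes tested, 6.04%, 18.8% and 8.32% were called up in these comparisons. The median log2 fold change of the 9 was 1.08, 2.15 and 0.88, against 0.01, −0.02 and −0.02 over all tested genes. The comparisons share samples, so that they are not independent of each other. The calls were 7, 9 and 7 with the animal as a block, where 10.1%, 23.0% and 13.9% of all genes were called up. They were 4, 9 and 2 with RNA integrity as a covariate, where 3.77%, 11.7% and 4.61% were. The 7 of the last comparison under the block left out TRIM58 and UBE2O. All 9 calls on day 14 vs. day 0 held under each of the 25 alternatives, with adjusted p of at most 0.00419. Without TMM the median of all tested genes moved to −0.36 between days 0 and 14, where 7.79% of genes were called up (1460 up against 7830 down), and to −0.35 between days 3 and 14, where 3.23% were (606 against 6600). Between days 0 and 3, 3.79% were called up without TMM, and 8 of the 9 genes. All 9 genes kept a positive sign in each comparison, with log2 fold changes of 0.97 to 2.45 on day 14 vs. day 0, and the 9 were called there.

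The order of levels was nearly the same at each time point, with BNIP3L highest, then FBXO7, MKRN1 and RNF10, and TRIM10 lowest. FPKM are per length of gene and can be set side by side. BNIP3L exceeded FBXO7 in 15 of 15 animals at each time point, by 2.90-fold on day 0, 2.31-fold on day 3 and 3.20-fold on day 14. FBXO7 and MKRN1 did not differ beyond their spread, with a mean log2 ratio of 0.11 ± 0.40 (SD, n = 15) on day 0 and 0.10 ± 0.46 on day 14. MKRN1 exceeded RNF10 in every animal at each time point, by 4.20-fold on day 0 and 2.69-fold on day 3. TRIM58 changed its place: on day 0 it lay below UBE2H in 12 of 15 animals (by 1.92-fold), and on day 3 and day 14 it lay above UBE2H in 12 and 13 animals (by 1.28-fold and 1.44-fold). XPO7 lay next above TRIM58 on days 3 and 14, by a mean log2 ratio of 0.22 ± 0.56 and 0.15 ± 0.49, within the spread.

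Animals differed widely on day 0 and less so, for several genes, on day 14. The SD of the log2 values fell from 1.29 to 0.93 for BNIP3L, from 1.72 to 1.01 for TRIM10 and from 1.09 to 0.79 for FBXO7. For UBE2O it was 0.95 on day 0 and 1.45 on day 14, and for UBE2H 0.80 and 1.03. These spreads are given as a description and were not tested. On day 0 the lowest deposited value of 7 of the 9 genes was that of animal 9, and the highest of 7 was that of animal 7. Animal 7 was also highest for 7 genes on day 3. On day 14 animal 15 was highest for 5 genes, and animals 13 and 4 were lowest for 5 and 4.

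Within animals the 9 genes moved together. Between days 0 and 14 all 9 increased in 14 of 15 animals, and the median of the 9 changes ran from 0.80 in animal 1 to 4.51 in animal 9, with 4.36 in animal 8 and 4.03 in animal 14. Animal 13 went the other way, with 8 genes lower, BNIP3L higher by 0.003 and a median of −0.31. By day 3 all 9 were higher in 11 animals, 8 were higher in animals 8 and 10, and 5 were higher in animals 13 and 15. The animals parted between day 3 and day 14. All 9 genes were higher in animals 3, 8, 9, 10, 12, 14 and 15, with medians of 0.44 to 3.19, and in animals 7, 11 and 13 at most 2 were higher, with medians of −0.42 to −0.30. Animals 1, 2, 4, 5 and 6 were mixed.

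**Figure D3:**
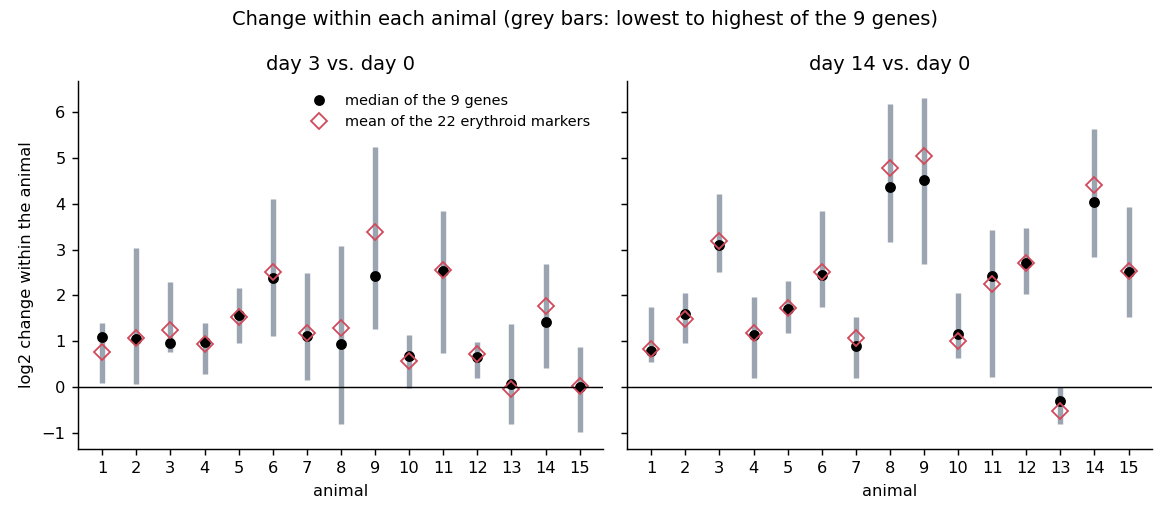
Log2 change within each of the 15 animals on day 3 and day 14 vs. day 0. Black points are the median of the 9 genes, grey bars their lowest and highest values, and open diamonds the change in the mean of the 22 erythroid markers of the same animal. Diamonds and points lie close together in most animals, with the widest gap in animal 9 on day 3 (2.42 for the median of the genes, 3.37 for the markers). Animal 13 is below 0 on day 14.

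The erythroid markers of the same libraries rose as well. Of 22 markers, among them SLC4A1 (the band 3 anion exchanger), ALAS2 (the first enzyme of heme synthesis), SPTB and FECH, 14 were up-regulated between days 0 and 3, 21 between days 0 and 14 and 6 between days 3 and 14, and none was down-regulated. With the animal as a block these counts were 19, 22 and 14, and without TMM 18, 20 and 6. Their median log2 fold changes were 1.26, 2.42 and 0.91. Summed over the list, they ranged from 963.2 to 24090 FPKM on day 0, from 6207 to 33360 on day 3 and from 12150 to 44740 on day 14. Most of this sum was ALAS2, with a mean of 6394 of 8993 FPKM on day 0 and 20960 of 29490 on day 14. In animal 13 the mean of the markers fell by 0.52 on the log2 scale between day 0 and day 14, and in animals 8, 9 and 14 it rose by 4.77, 5.04 and 4.40. Over the 45 samples each of the 9 genes correlated with this mean at Pearson's r of 0.905 (UBE2O) to 0.974 (XPO7), and at 0.842 to 0.954 after removal of the time point means. The points share libraries and scaling, and 3 come from each animal, so that these values are a description.

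Other cell types of blood moved with the time point too. Of 9 neutrophil markers 5 were down-regulated on day 3 and 8 on day 14, both vs. day 0, and their summed level went from 2376 ± 2228 FPKM (SD, n = 15) on day 0 to 917.2 ± 485.8 and 558.7 ± 188.7. The neutrophil marker with the highest day 0 mean (971.8 ± 1413 FPKM) was not among the 8 called down on day 14. All 7 platelet markers were up-regulated on day 3 vs. day 0 (963.3 ± 1060 to 2104 ± 1114 FPKM) and 2 on day 14 vs. day 0. Of 7 NK cell markers 4 were up-regulated on day 14 vs. day 0, and 2 of 7 monocyte markers, 1 of 7 B cell markers and 0 of 7 T cell markers were down-regulated. Of all genes tested 6.19% were called down on day 3 and 17.3% on day 14, a share that the B cell and T cell counts of day 14 do not exceed. On day 3, 1 of 7 T cell markers and 0 of 7 B cell markers were called down (0 B cell markers also at an unadjusted p under 0.05). At an unadjusted p under 0.05, 3 monocyte, 3 B cell and 2 T cell markers passed in either direction, and 1 T cell marker was called up. With the animal as a block, 9.01% and 21.0% of all genes were called down, 7 neutrophil markers were down on day 3 and 8 on day 14, 7 and 5 platelet markers were up on these days, and on day 14 5 NK cell and 2 T cell markers were up and 3 monocyte, 2 B cell and 0 T cell markers down. Without TMM 41.8% of all genes were called down on day 14, and in that fit 9 neutrophil, 4 monocyte, 5 B cell and 2 T cell markers were down and 4 NK cell markers, 1 platelet marker and 0 T cell markers were up. No list was at 0 in any group. The part of these shifts in the results for the 9 genes was not tested.

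To ask whether a gene moved by more or less than the erythroid markers, the mean log2 value of the 22 markers was subtracted from each gene in each sample, which also removes any scaling factor. Since the markers rose, 93.0%, 97.5% and 65.9% of all tested genes were called lower on this scale in the comparisons of days 0 and 3, days 0 and 14, and days 3 and 14, and 0.0800%, 0.0747% and 0.267% were called higher. Of the 9 genes, 2 were lower and 2 higher in the first, 1 lower and 1 higher in the second, and 0 lower and 1 higher in the third. At an unadjusted p under 0.05, limma passed the same number, 4, 2 and 1. With most genes called in the comparisons with day 0, an adjusted p near 0.05 on this scale is close to the unadjusted p. The erythroid markers themselves were called lower in 4, 3 and 0 cases of 22 and higher in 3, 4 and 1.

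TRIM58 and UBE2O exceeded the markers on day 3 vs. day 0, by 0.68 (standard error 0.26, adjusted p = 0.0133, in 13 of 15 animals) and 0.73 (standard error 0.29, adjusted p = 0.0154, in 14 animals). TRIM58 was also above them on day 14 vs. day 0, by 0.57 (adjusted p = 0.0312, in 11 animals). That call was lost without a filter on low values, with the median of the markers in place of their mean (0.37, adjusted p = 0.207), and without animal 3, 6, 8 or 11. For UBE2O the difference on day 14 vs. day 0 was 0.29, with an interval of −0.28 to 0.86 (adjusted p = 0.311). From day 3 to day 14 UBE2O changed by −0.44 against the markers (adjusted p = 0.147, lower in 11 animals), and 1 alternative called it lower.

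BNIP3L and UBE2H lagged behind the markers on day 3 vs. day 0. BNIP3L lay below them by −0.75 (standard error 0.25, adjusted p = 0.00659), in 14 of 15 animals, and UBE2H by −0.61 (standard error 0.26, adjusted p = 0.0254), in 12 animals. The UBE2H call on day 3 was lost with 1 FPKM as the pseudocount, with RNA integrity as a covariate, with the median of the markers, and without animal 9, 11 or 14 (adjusted p up to 0.107). BNIP3L then gained on the markers from day 3 to day 14 by 0.62 (standard error 0.25, adjusted p = 0.034, in 13 animals), a call lost without animal 2, 3, 8, 9, 12, 14 or 15 and with the median of the markers (0.33, adjusted p = 0.269), and on day 14 vs. day 0 its difference was −0.13 with an interval of −0.64 to 0.37 (adjusted p = 0.606). UBE2H remained below them on day 14 vs. day 0, by −0.88 (standard error 0.26, adjusted p = 0.00122) and in 15 of 15 animals, under each alternative run (−1.08 to −0.71, adjusted p of at most 0.0224).

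TRIM10 was above the markers in 15 of 15 animals on day 14 vs. day 0, by 0.57 with an interval of −0.02 to 1.17 (adjusted p = 0.0588, and 0.0211 with the animal as a block). FBXO7, MKRN1, XPO7 and RNF10 did not pass this test in any of the 3 comparisons. Under alternatives, XPO7 was called lower than the markers on day 14 vs. day 0 with a pseudocount of 0.01, with voom and with the median of the markers (down to −0.60), and FBXO7 and MKRN1 on day 3 vs. day 0 with voom. TRIM10 was called higher on day 14 with that pseudocount and with voom. In the fit reported here, the differences of these 4 genes from the markers lay between −0.42 and 0.29.

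**Figure D4:**
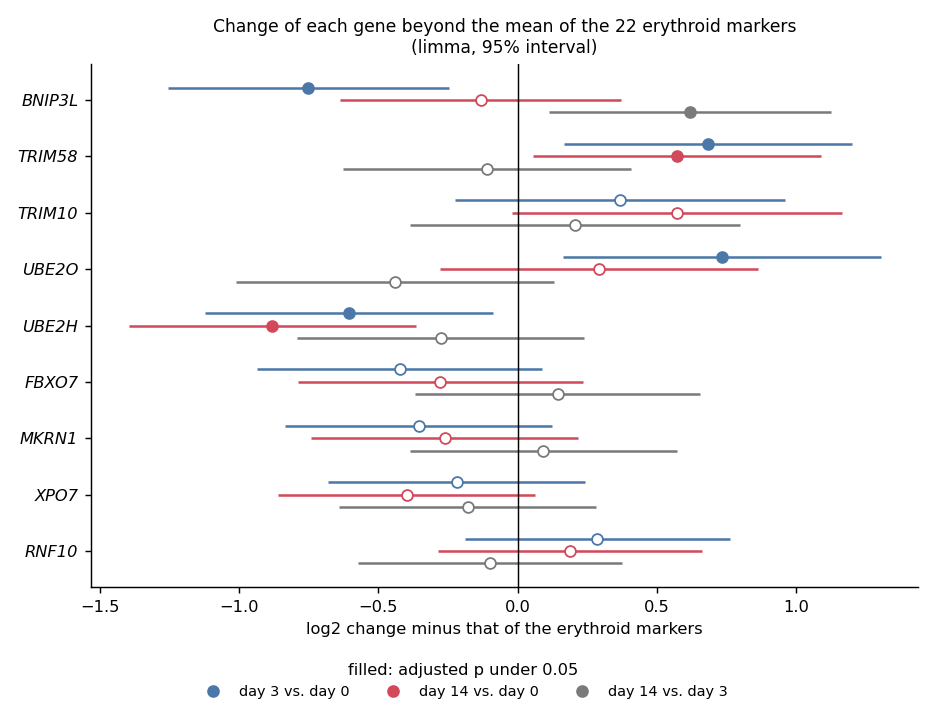
Log2 change of each gene minus that of the mean of the 22 erythroid markers, with its 95% interval from limma. Filled points passed an adjusted p under 0.05. TRIM58 and UBE2O lie to the right of 0 on day 3 vs. day 0, BNIP3L and UBE2H to the left, and UBE2H lies at −0.88 on day 14 vs. day 0.

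The partners of the 9 genes were taken from lists of their complexes and families, and 8 of these lists were counted in the same fit. Of 11 subunits of the CTLH ligase, with which UBE2H works, 5 were up-regulated between days 0 and 3, 7 between days 0 and 14 and 2 between days 3 and 14, and none was down-regulated. RANBP10 rose from 7.41 ± 4.61 to 33.9 ± 29.4 FPKM (SD, n = 15) between days 0 and 14 (log2 fold change 2.50), RMND5A from 95.4 ± 53.3 to 271.0 ± 103.1 (2.02) and YPEL5 from 99.8 ± 48.4 to 206.6 ± 65.4 (1.54), each in 14 animals. MAEA, a RING subunit of the same ligase, went from 34.1 ± 9.20 to 20.5 ± 5.41 FPKM, a scaled log2 fold change of −0.31 (adjusted p = 0.0853), which was −0.73 and called (adjusted p = 8.4e-05) without TMM. RANBP9, the paralog of RANBP10, had a log2 fold change of 0.68 (0.25 and not called without TMM) and is named here after its value was seen. The CTLH count without TMM was 5 up and 2 down by day 14. With the animal as a block it was 9 up there and 5 up between days 3 and 14.

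FBXO7 is joined to its ligase by SKP1, CUL1 and RBX1 and binds the proteasome inhibitor PSMF1. Of these and NEDD8, which activates cullins, 4 of 5 were up-regulated between days 0 and 14 and 3 between days 3 and 14. Between days 0 and 3 limma called 0 of 5, with 1 at an unadjusted p under 0.05. RBX1 rose from 215.5 ± 146.2 to 639.9 ± 232.6 FPKM (2.16), SKP1 from 101.5 ± 46.8 to 227.6 ± 82.2 (1.64) and PSMF1 from 12.9 ± 5.45 to 24.2 ± 11.7 (1.28), each in 14 animals. CUL1, the scaffold, had a log2 fold change of −0.10 (adjusted p = 0.314), and −0.52 (adjusted p = 0.00248) without TMM. Without TMM the list had 3 up and 1 down.

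Beside BNIP3L, 11 other mitophagy receptors and adaptors were tested, and 2 were up-regulated by day 3, 8 by day 14 and 3 between these days. TAX1BP1, a ubiquitin-binding autophagy adaptor, rose from 46.9 ± 19.5 to 105.7 ± 28.4 FPKM (1.63) in 15 of 15 animals. OPTN (0.92) and BCL2L13 (0.82) were up-regulated in 14 animals each. FKBP8, an outer membrane receptor named here because its rise was the largest of the list, went from 646.8 ± 499.5 to 2084 ± 781.3 FPKM (2.45). BNIP3, the closest relative of BNIP3L, had 12.2 ± 2.75 FPKM in the field, 9.22 ± 2.27 on day 14 and a scaled log2 fold change of 0.01 (adjusted p = 0.969), which was −0.41 (adjusted p = 0.0202) without TMM. Without TMM 5 of the list rose and 1 fell by day 14, and with the animal as a block 5 rose between days 3 and 14.

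BNIP3L binds proteins of the ATG8 family. Of 10 tested ATG8 and ULK1 complex genes, 4 rose and 1 fell by day 14, and by day 3 limma called 0, with 1 at an unadjusted p under 0.05 and 1 called with the animal as a block. GABARAPL2 rose from 679.8 ± 515.6 to 1491 ± 494.2 FPKM (1.83) in 14 animals. The smaller rises of GABARAP (0.69) and ULK2 (0.37) depended on the scaling: without TMM they were 0.26 (adjusted p = 0.0624) and −0.05 (adjusted p = 0.841). ULK1, the kinase that starts autophagosome formation and named here because it was the one fall of the list, was down-regulated by −0.58 (adjusted p = 0.0305). Without TMM the split of the list was 1 up and 5 down, where 41.8% of all genes were called down.

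UBB, a gene that encodes ubiquitin itself, rose from 6381 ± 4444 FPKM on day 0 to 22060 ± 9203 on day 14 (log2 fold change 2.47, standard error 0.39, in 14 animals), and by 2.04 without TMM. RPS27A, which encodes ubiquitin fused to a ribosomal protein, was up-regulated by 0.73 with TMM (adjusted p = 0.0245), and its change without TMM was 0.31 (adjusted p = 0.326). The ubiquitin sequence recurs within UBB and in other genes, so that the assignment of reads to them is uncertain.

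The other E2 enzymes were divided. Of 30 tested, 12 rose, 3 fell and 15 were not called by day 14, with a median log2 fold change of 0.16, and without TMM 4 were up and 13 down, a share close to the 41.8% of all genes called down in that fit. CDC34, an E2 of SCF ligases, rose under both, from 13.1 ± 4.26 to 47.7 ± 33.7 FPKM (2.09, in 14 animals). UBE2E2 was down-regulated by −0.52 (lower in 13 animals), and UBE2G1 was up-regulated by 0.73 (0.30 without TMM). By day 3, 5 had risen and 2 fallen, and between days 3 and 14, 5 rose and 1 fell.

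Of 10 tested relatives of TRIM58, TRIM10 and MKRN1, 1 rose and 1 fell by day 14, with a median of −0.03. TRIM15 rose from 0.692 ± 0.460 to 2.92 ± 1.42 FPKM (2.39, in 14 animals), and TRIM38 was down-regulated by −0.41 (in 14 animals). MKRN2 had a log2 fold change of −0.07 (adjusted p = 0.605), and −0.49 (adjusted p = 0.0233) without TMM. Without TMM 1 was up and 6 were down, beside 41.8% of all genes down, and with the animal as a block 1 was up and 2 were down.

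Among 10 exportins and genes of the RAN cycle, 5 rose and 1 fell by day 14, with a median of 0.22. XPO4 rose from 24.5 ± 6.72 to 37.4 ± 9.81 FPKM (1.05) in 15 of 15 animals, and XPO6, the exportin of actin, fell from 167.1 ± 63.6 to 63.2 ± 15.7 (−0.91), lower in 13 animals. CSE1L was up-regulated by 0.37, which turned to −0.06 without TMM, when 1 of the list was up and 1 down. Of 9 subunits of cytoplasmic dynein, the target of TRIM58, 4 rose and 1 fell by day 14. The light chains DYNLL1 (1.53), DYNLRB1 (1.31) and DYNLL2 (0.84) rose in 14 animals each. The intermediate chain DYNC1I2, to which TRIM58 binds, had 25.3 ± 5.57 FPKM on day 0, 19.3 ± 7.39 on day 14 and a scaled change of −0.02 (adjusted p = 0.881), which was −0.44 (adjusted p = 0.0234) without TMM. Without TMM 3 dynein genes were up and 3 down.

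**Figure D5:**
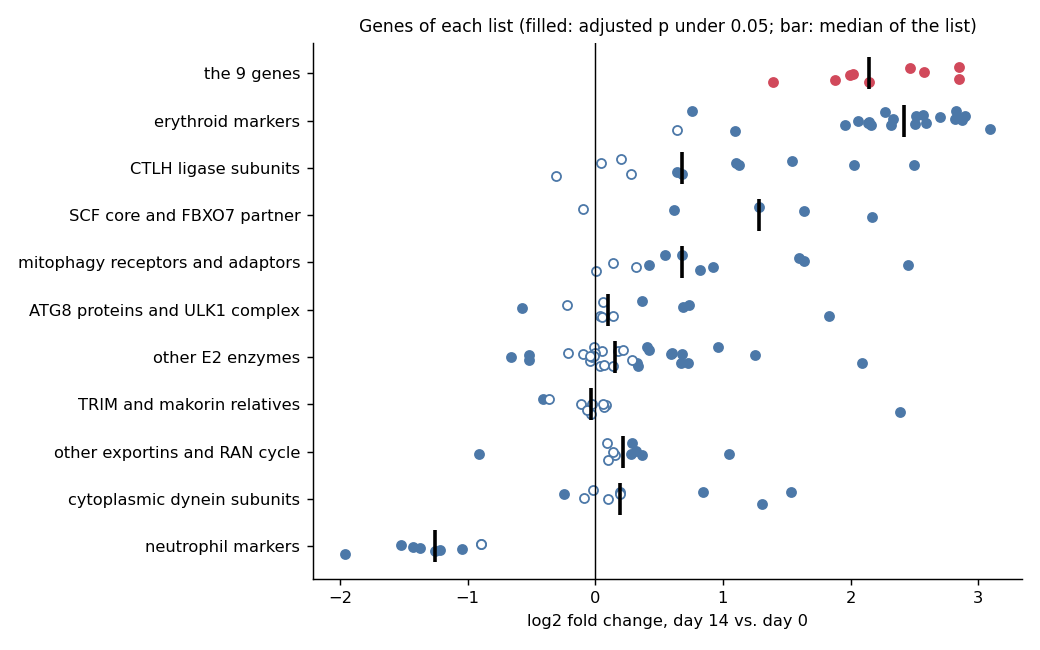
Log2 fold change on day 14 vs. day 0 of the 9 genes (red), the erythroid and neutrophil markers and the lists of partners and relatives (blue). Each point is a gene, filled at an adjusted p under 0.05, and black bars are medians. The 9 genes have a median of 2.15 and the erythroid markers 2.42, the CTLH and mitophagy lists 0.68 each, and the neutrophil markers lie below 0.

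The genes whose course over the 45 samples was most like the mean of the 9 were MARCH8 (Pearson's r = 0.989), BRAP, SOX6, FOXO3, SLC16A10, EIF2AK1, DCAF12, EPB41, NAPA and RNF152 (r = 0.978). MARCH8 is a membrane-bound RING E3 ligase, SOX6 and FOXO3 are transcription factors, EIF2AK1 is the heme-regulated kinase of translation and EPB41 is protein 4.1 of the red cell skeleton. After removal of the time point means the r values of these genes were 0.961 to 0.983. They were drawn from the other genes with at least 5 CPM on average, and the values describe libraries of which 3 share each animal.

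Single genes had their own closest neighbours. BNIP3L was nearest to RBX1 (r = 0.983) and DCUN1D1, which promotes NEDD8 attachment to cullins. TRIM58 was nearest to MARCH8 (0.967), UBE2O to ANK1 (0.956) and SPTB, both of the membrane skeleton, and RNF10 to BCL2L1 (0.980), which protects erythroid cells from death. XPO7 was nearest to DCAF8 (0.971), FBXO7 to TRAK2 (0.968), TRIM10 to SLC26A3 (0.959) and UBE2H to ITSN1 (0.948). MKRN1 was nearest to LOC103238820 (0.979), which RefSeq lists as a pseudogene. Whether it shares reads with MKRN1 was not tested, and the level of MKRN1 is uncertain to that extent. Among the 9 themselves, r ran from 0.731 for BNIP3L and UBE2O to 0.958 for MKRN1 and RNF10.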

How the data were processed

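The authors aligned paired-end reads of stranded libraries with STAR to the vervet genome, counted fragments per gene with HTSeq and deposited FPKM per sample. FPKM were turned back into whole fragments (100% of values above 0 within 0.01 of a whole number), giving 13216275 to 31469332 fragments per library. Genes with over 0.5 CPM in at least 3 samples (6.61 to 15.7 fragments) were tested, all 9 included. log2(FPKM/TMM factor + 0.1) was fitted with limma 3.58.1 (R 4.3.3) with 1 mean per time point over 45 libraries. The animal block was an alternative: with time point means removed, samples of 1 animal correlated with a mean r of 0.328 (0.194 to 0.506 per animal) and those of different animals with −0.038. RNA integrity entered only as a covariate. Of 184 listed symbols, 179 were found. The 9 genes and all lists were chosen with earlier results of these data known. Named partners are the 3 with the lowest adjusted p on day 14 vs. day 0 in each list, plus stated partners of the 9 genes. RANBP9, FKBP8 and ULK1 were added after their values were seen. The code was tested on simulated data. Some listed genes are not reported here.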

Additional observations from a re-analysis of the deposited data

How the results depend on the processing

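Among the 9 genes, no called change was reversed under any alternative run, while some small rises among partners turned sign without TMM. The count of the 9 genes called was 8 on day 3 vs. day 0 without TMM (5 with it) and 3 to 5 with 1 animal left out, 3 being the count without animal 6 or 11. On day 14 vs. day 0 it was 9 throughout. On day 14 vs. day 3 it was 7 with the animal as a replicate block (3 without it) and 1 to 4 with 1 animal left out, with 1 without animal 3, 8, 12 or 14. Relative to the erythroid markers, the count on day 3 vs. day 0 (4) ran from 3 to 6, and that on day 14 vs. day 0 (2) was 4 with a pseudocount of 0.01, 4 with voom, 1 without a filter on low values and 1 to 2 with 1 animal left out. On day 14 vs. day 3 (1) it was 0 without the filter (limma, 1 at an unadjusted p under 0.05), 0 with the replicate block and RNA integrity together (0 at an unadjusted p under 0.05; 1 with voom) and 0 to 1 with 1 animal left out. Of the 9 genes, the block changed no other call than those given. The cause of these shifts was not tested. With globin removed and no cell counts used here, levels are shares of each library.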
